A study of Mus musculus with 17 samples.

Results

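Expression in the choroid plexus was compared between mice labelled T5, which had 3 days of dextran sodium sulfate (DSS) followed by 2 days of water, and mice labelled CTRL. The comparison rests on 4 T5 and 5 CTRL libraries of the 17 in the series, taken by the time point each sample is labelled with. The other groups, T1 (1 day of DSS) and T3 (3 days of DSS, with no water days after), have 4 libraries each and entered the shared estimate of spread; T3 also served for a test of the difference from T5. All mice were of the strain C57BL/6, and RNA came from whole choroid plexus of the lateral ventricles. The labels give no transgene, age or sex and do not describe what CTRL mice drank. They also do not tie each library to an animal of its own, and p-values here reflect only the spread among these libraries, part of which may be technical.

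DSS is a sulfated polymer that, given in drinking water, injures the lining of the colon and is used as a model of colitis. The choroid plexus is a tuft of fenestrated capillaries, stromal fibroblasts and macrophages covered by a ciliated epithelium that secretes cerebrospinal fluid and transthyretin. Its stroma lies outside the blood-brain barrier and is open to proteins and cytokines carried in blood. Interferons act through receptors that activate STAT and IRF factors, and the genes they switch on include the class I and class II major histocompatibility complex (MHC) genes, GTPases that attack the vacuoles of intracellular pathogens, and chemokines that attract leukocytes.

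Library totals were 16021690 to 25854664 counts in CTRL and 12477553 to 19928986 in T5. All 20 markers of choroid plexus epithelium were tested, and Ttr, the transthyretin gene, took 9.76 to 12.9% of the counts in CTRL and 9.10 to 13% in T5, so the tissue label held in these 9 libraries. The share of mitochondrially encoded counts was 2.84% ± 0.361 in CTRL and 3.25% ± 0.434 in T5 (SD, 5 and 4 libraries; exact two-sided permutation p = 0.151, adjusted over 4 such measures 0.302). Transcripts annotated as long non-coding (lincRNA, antisense and related classes) or as not yet experimentally checked took 0.784% ± 0.0938 and 0.704% ± 0.0172. The exact permutation p was 0.0635, adjusted 0.254. With 5 and 4 libraries only a limited set of p-values is possible in this permutation test. The running number in the sample titles is 1 to 8 for CTRL and 23 to 26 for T5, so number and group cannot be told apart. All 4 Y-linked genes checked had reads in every library. The list of 5 sex-linked genes had 0 members with a positive log2 fold change of T5 against CTRL, a median of -0.48 and 2 at an unadjusted p below 0.05, and its mean was 4.23 to 4.6 log2 CPM in CTRL and 3.75 to 4.08 in T5, without overlap. Markers of brain cells differed widely between the libraries. The mean log2 CPM of neuron, astrocyte and oligodendrocyte markers was 4.40, 1.46, 0.94, 3.57 and 5.03 in CTRL replicates 1 to 5, and 3.56, 5.09, 5.83 and 3.63 in T5 replicates 1 to 4 (CPM stands for read counts scaled by TMM to a common library size). The 2 lowest libraries were CTRL replicates 2 and 3 and the 2 highest were T5 replicates 2 and 3.

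No gene passed the test between T5 and CTRL. Of 16851 genes tested with edgeR's quasi-likelihood test, 0 (0%) had a Benjamini-Hochberg adjusted p below the threshold of 0.05, the lowest being 0.521. At an unadjusted p below 0.05 stood 1320 genes (7.83%), 656 of them higher in T5 (3.89%) and 664 lower (3.94%). In 166 genes (0.985%) every T5 library lay above every CTRL library, and in 265 genes (1.57%) every T5 library lay below. The median log2 fold change over all genes was 0.02, with 54.5% of genes positive, and the medians of the gene lists below are read beside it. DESeq2 called 16 genes, 4 higher (Tgtp2, Iigp1, Nefm and Bhlhe22) and 12 lower, among them Dnah7b, Dnmbp, Cfap44, Ddi1, Rmst, Trpm3 and Otx1. Limma-voom called 0. The values that follow are TMM-normalised CPM in replicate order, and log2 fold changes (T5 minus CTRL) ± their approximate standard errors (SE) from edgeR. Each is a measured difference that did not pass edgeR's test, and for every gene named the adjusted p against CTRL was 0.521 or above. Against T3, edgeR called 0 genes as well (lowest adjusted p 0.267), with 727 higher in T5 (4.31%) and 1037 lower (6.15%) at an unadjusted p below 0.05. DESeq2 called 84 in that comparison. For scale, T3 against the same CTRL libraries had 838 genes (4.97%) at that unadjusted level, 539 higher (3.20%) and 299 lower (1.77%), and T1 had 3553 (21.1%), 1589 higher (9.43%) and 1964 lower (11.7%). edgeR called 0 in both.

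**Figure D1:**
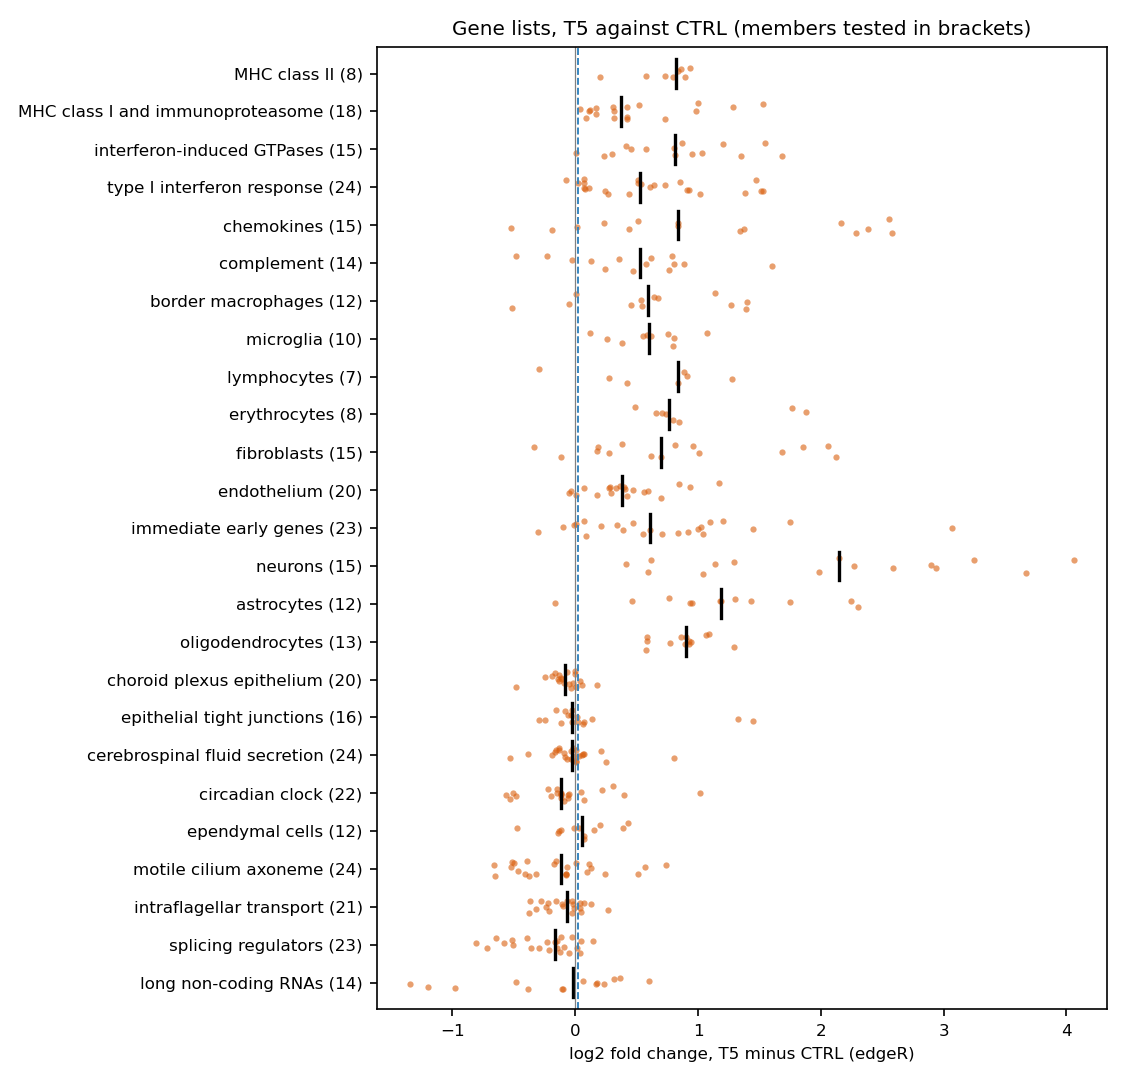
Log2 fold change of T5 over CTRL (horizontal axis, edgeR) for each tested member of 25 gene lists, with the number of members in brackets; the black bar is the list's median and the dashed line the median of all 16851 genes at 0.02. All tested members of the MHC and interferon-induced GTPase lists lie right of 0, and most members of the cilium and splicing lists lie left of it.

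The genes of MHC class II, which presents peptides from outside the cell to CD4+ T cells, were higher in the T5 libraries in all 8 members tested of 9. Their median log2 fold change was 0.82, 6 stood at an unadjusted p below 0.05, and in 4 the groups did not overlap. H2-Ab1 (chr17:34257689-34269419, GRCm38), which encodes the beta chain of the I-A molecule, stood at 39.6, 53.4, 39.1, 56.2 and 27.4 CPM in CTRL and 66.4, 60.1, 109 and 77 CPM in T5. All 4 T5 libraries lay above all 5 CTRL libraries, with T5 replicate 3 the highest and CTRL replicate 5 the lowest. The log2 fold change was 0.86 ± 0.22 (edgeR adjusted p = 0.521). Cd74, the invariant chain that guards the peptide groove until loading, stood at 67.4, 98, 61.4, 101 and 42.2 CPM in CTRL and 136, 105, 199 and 109 CPM in T5, again with no overlap (0.89 ± 0.24). H2-Eb1, another class II beta chain gene, stood at 29.98, 32.8, 21.4, 34.6 and 17.1 CPM in CTRL and 39.2, 35.6, 68.3 and 46.1 CPM in T5. T5 replicate 2 lay just above CTRL replicate 4 (0.80 ± 0.25). H2-DMa, part of the peptide exchange factor, overlapped by 1 library and had 0.73 ± 0.21 (edgeR adjusted p = 0.565).

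The mean log2 CPM of the class II list was 3.11 to 3.65 in CTRL and 3.78 to 4.44 in T5. With the brain marker mean of each library as a term in the fit, the median was 0.91 and the same number of members, 6, stood at an unadjusted p below 0.05. With the mean of border macrophage and microglia markers as a term, an alternative chosen after seeing the data, these were 0.92 and 6. Over all genes tested, 1405 stood at that level with the brain marker term and 1428 with the macrophage marker term. Leaving out 1 library at a time gave class II medians of 0.65 (without T5 replicate 3) to 0.93 (without T5 replicate 2). H2-Ab1 was 0.71 ± 0.23 against T3 (edgeR adjusted p = 0.346), where its mean was 47.9 ± 6.72 CPM (SD, n = 4). The list medians against the same CTRL libraries were -0.04 for T1 and 0.23 for T3.

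MHC class I and the immunoproteasome, which present peptides made inside the cell to CD8+ T cells, had all 18 members positive with a median of 0.37, 9 of them at an unadjusted p below 0.05. H2-D1, a classical class I heavy chain, stood at 112, 104, 82.8, 102 and 80.8 CPM in CTRL and 169, 132, 226 and 113 CPM in T5, without overlap (0.73 ± 0.19). T5 replicate 4 lay just above CTRL replicate 1, while T5 replicate 3 lay far above. Psmb8, a catalytic subunit of the immunoproteasome, stood at 7.4, 5.97, 3.83, 8.5 and 5.5 CPM in CTRL and 17.8, 7.48, 16 and 8.61 CPM in T5 (1.0 ± 0.29). T5 replicates 1 and 3 were high and replicates 2 and 4 lay within or at the edge of the CTRL range. Psmb9, the partner subunit, stood at 6.83, 3.51, 2.86, 5.67 and 2.8 CPM in CTRL and 9.65, 6.77, 10.0 and 7.85 CPM in T5 (0.99 ± 0.29). H2-Q6, a class Ib gene, stood at 1.41, 0.645, 0.589, 1.45 and 0.505 CPM in CTRL and 2.4, 2.99, 2.91 and 2.33 CPM in T5 (1.53 ± 0.43). Class I genes share long near-identical stretches, and how the authors' counting treated reads that fit several of them is not given in the sources used here, so the split among these genes is uncertain. The list mean did not overlap, at 3.91 to 4.2 log2 CPM in CTRL and 4.34 to 4.79 in T5. Without T5 replicate 1 the median of the list was 0.21; with the brain marker term it was 0.37. It was 0.31 for T1 and 0.12 for T3 against the same CTRL libraries, and T5 minus T3 had a median of 0.32.

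Interferon-induced GTPases were positive in all 15 members tested of 17, with a median of 0.82 and 6 at an unadjusted p below 0.05. Upstream sequences of 4 genes of the interferon lists are shown because they hold the letters bound by the factors that interferon activates. The windows are the 250 bases before the annotated start (RefSeq, GRCm38.p6), 5′ to 3′ on the gene's strand. Capitals mark matches to the interferon-stimulated response element (ISRE), searched as GAAA followed after any 2 bases by GAAA, and in Tgtp2 also to the gamma-activated site (GAS), searched as TTCNNNGAA, on either strand. Tgtp2 lies on the minus strand at chr11:49064213-49064462, Gbp2 on the plus strand at chr3:142620413-142620662, Ifit1 on the plus strand at chr19:34640639-34640888 and Cxcl10 on the minus strand at chr5:92348890-92349139.
Tgtp2: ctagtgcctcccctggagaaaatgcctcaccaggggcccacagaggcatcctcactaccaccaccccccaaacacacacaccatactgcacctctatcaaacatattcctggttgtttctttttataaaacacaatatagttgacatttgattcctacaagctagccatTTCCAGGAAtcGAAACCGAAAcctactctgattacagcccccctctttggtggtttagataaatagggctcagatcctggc
Gbp2: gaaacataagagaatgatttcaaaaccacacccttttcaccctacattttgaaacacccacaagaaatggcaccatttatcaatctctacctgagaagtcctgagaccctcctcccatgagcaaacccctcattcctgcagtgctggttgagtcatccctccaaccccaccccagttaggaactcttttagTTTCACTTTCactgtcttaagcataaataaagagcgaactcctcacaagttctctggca
Ifit1: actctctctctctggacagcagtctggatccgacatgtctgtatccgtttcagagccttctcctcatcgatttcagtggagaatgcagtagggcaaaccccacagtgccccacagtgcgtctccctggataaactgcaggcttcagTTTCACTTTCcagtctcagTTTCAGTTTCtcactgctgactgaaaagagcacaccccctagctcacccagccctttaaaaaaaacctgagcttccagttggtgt
Cxcl10: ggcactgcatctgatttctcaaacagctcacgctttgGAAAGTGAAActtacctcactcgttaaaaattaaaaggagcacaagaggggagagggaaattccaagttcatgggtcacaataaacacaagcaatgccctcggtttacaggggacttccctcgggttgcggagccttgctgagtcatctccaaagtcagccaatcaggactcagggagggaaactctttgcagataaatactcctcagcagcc

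In Tgtp2 the GAS match precedes the ISRE match without overlapping it. The other 3 windows hold no GAS match, and Ifit1 holds 2 ISRE matches. Of the 12051 tested genes with a window in the RefSeq table, 388 (3.22%) held the ISRE letters and 851 (7.06%) the GAS letters. Among the GTPases, 9 of the 10 with a window held the first and 6 of 10 the second. In the type I interferon list it was 9 of 18 and 3 of 18, in class I 3 of 15 and 1 of 15, in the chemokines 2 of 10 and 1 of 10, and in class II 0 of 5 for both. A match describes letters and is not a measured binding site.

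Tgtp2 (chr11:49057194-49064206), a GTPase of the immunity-related family, stood at 1.24, 1.45, 1.01, 1.95 and 0.841 CPM in CTRL and 4.96, 2.2, 2.77 and 6.75 CPM in T5. All T5 libraries lay above all CTRL libraries, with T5 replicates 1 and 4 highest. Its log2 fold change was 1.68 ± 0.37 (edgeR adjusted p = 0.521; DESeq2 adjusted p = 0.0280), and against T3 it was 1.23 ± 0.39 (edgeR adjusted p = 0.346). Tgtp2 has a near-identical neighbouring copy, so its count is uncertain. Ifi47, of the same family, stood at 3.22, 4.28, 2.9, 4.22 and 2.52 CPM in CTRL and 11.5, 6.3, 8.58 and 8.61 CPM in T5, also without overlap (1.35 ± 0.35). Iigp1, which coats and disrupts pathogen vacuoles, stood at 3.95, 1.49, 2.69, 2.96 and 3.03 CPM in CTRL and 8.85, 3.86, 7.02 and 13.3 CPM in T5 (1.55 ± 0.37). T5 replicate 2 lay just below CTRL replicate 1 and the other T5 libraries lay above the CTRL range. Gbp2, a guanylate-binding protein, stood at 8.92, 3.91, 3.83, 6.49 and 6.28 CPM in CTRL and 22.2, 8.42, 11.4 and 6.11 CPM in T5 (1.03 ± 0.41), with T5 replicates 2 and 4 inside the CTRL range. The median of the list was 0.47 without T5 replicate 1, 0.44 with the brain marker term and 0.42 with the macrophage marker term. Members at an unadjusted p below 0.05 numbered 5 and 3 with these terms and 3 without T5 replicate 1. The list median was 0.52 for T1 and 0.52 for T3 against the same CTRL libraries, and T5 minus T3 had a median of 0.18, with 2 of 15 members at an unadjusted p below 0.05.

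The type I interferon response list had 23 of 24 tested members positive of 26, with a median of 0.53 and 5 at an unadjusted p below 0.05. Ifit1, which binds foreign RNA, stood at 8.58, 4.44, 3.78, 9.57 and 4.54 CPM in CTRL and 35.7, 7.72, 18.7 and 6.4 CPM in T5. T5 replicates 1 and 3 were high, and replicates 2 and 4 lay inside the CTRL range (1.48 ± 0.52). Ifit3 stood at 9.94, 3.43, 2.44, 6.23 and 6.73 CPM in CTRL and 32, 10.8, 15.9 and 6.86 CPM in T5 and Isg15, a ubiquitin-like modifier, at 3.28, 1.82, 1.43, 2.52 and 1.18 CPM in CTRL and 9.11, 2.2, 7.24 and 2.67 CPM in T5. Their log2 fold changes were 1.51 ± 0.49 and 1.38 ± 0.50, with the same 2 T5 libraries highest. Irf7, the factor that drives interferon alpha genes, stood at 7.23, 6.25, 4.71, 7.12 and 4.93 CPM in CTRL and 14.5, 6.61, 19.9 and 7.73 CPM in T5 (1.01 ± 0.30). The median was 0.30 without T5 replicate 3, and 1 member stood at an unadjusted p below 0.05 without T5 replicate 1. With the macrophage marker term the median was 0.25. It was 0.38 for T1 and 0.15 for T3 against the same CTRL libraries, and T5 minus T3 had a median of 0.45.

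Chemokines, the secreted proteins that guide leukocytes, were positive in 13 of 15 tested members of 20. Their median was 0.84, with 7 at an unadjusted p below 0.05. The filter on low counts needs reads in only as many libraries as the smallest group has. A member low in CTRL can thus enter through the T5 libraries, so the positive count and the median may lean upward. This holds for each list with untested members. Cxcl10, a ligand of the receptor Cxcr3 on activated T cells, stood at 1.02, 0.282, 0.883, 0.378 and 0.841 CPM in CTRL and 6.98, 2.36, 6.1 and 0.93 CPM in T5 (2.58 ± 0.64). T5 replicates 1, 2 and 3 lay above the CTRL range and replicate 4 within it. Against T3, where Cxcl10 stood at 0.893 ± 0.556 CPM, the difference was 2.17 ± 0.68 (edgeR adjusted p = 0.342). Ccl12, a ligand of Ccr2 on monocytes, stood at 1.02, 0.645, 0.0421, 0.693 and 1.46 CPM in CTRL and 3.78, 1.73, 3.83 and 6.69 CPM in T5, without overlap (2.39 ± 0.77). T5 replicate 4, low for Cxcl10, was the highest for Ccl12. Ccl5, a chemokine that attracts T cells, stood at 0.508, 0.444, 0.252, 0.315 and 0.224 CPM in CTRL and 1.44, 0.551, 3.62 and 0.756 CPM in T5, without overlap (2.17 ± 0.60; 1.38 without T5 replicate 3). Ccl8 stood at 0.0565, 0.323, 0.21, 0.126 and 0.729 CPM in CTRL and 0.853, 0.551, 2.2 and 3.31 CPM in T5 (2.55 ± 0.79); in several CTRL libraries these are a few reads. The list mean was 0.32 to 0.92 log2 CPM in CTRL and 1.38 to 1.9 in T5. The median was 1.32 without CTRL replicate 5, where 4 members stood at an unadjusted p below 0.05, and 0.88 and 0.69 with the brain and macrophage marker terms. It was 0.35 for T1 and 0.27 for T3 against the same CTRL libraries, and T5 minus T3 had a median of 0.99.

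The list of NF-kB targets, cytokines and acute phase proteins had 16 of 22 tested members positive of 30 and a median of 0.19, with 2 at an unadjusted p below 0.05. Lrg1, a secreted glycoprotein of the acute phase, stood at 2.54, 2.18, 0.547, 2.39 and 1.96 CPM in CTRL and 4.05, 4.8, 4.26 and 7.15 CPM in T5, without overlap (1.4 ± 0.57, edgeR adjusted p = 0.604). Cebpd, an acute phase transcription factor, stood at 9.37, 7.1, 10.3, 15.5 and 9.31 CPM in CTRL and 25.3, 31.7, 17.9 and 12.8 CPM in T5 (1.09 ± 0.42). T5 replicate 4 was inside the CTRL range for Cebpd and highest for Lrg1. Lcn2, which binds bacterial siderophores, stood at 0.339, 0.645, 0.336, 0.441 and 2.02 CPM in CTRL and 2.5, 1.57, 3.19 and 6.16 CPM in T5 (2.15 ± 1.29, edgeR adjusted p = 0.726). With the macrophage marker term the median of the list was -0.09, below 0.

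**Figure D2:**
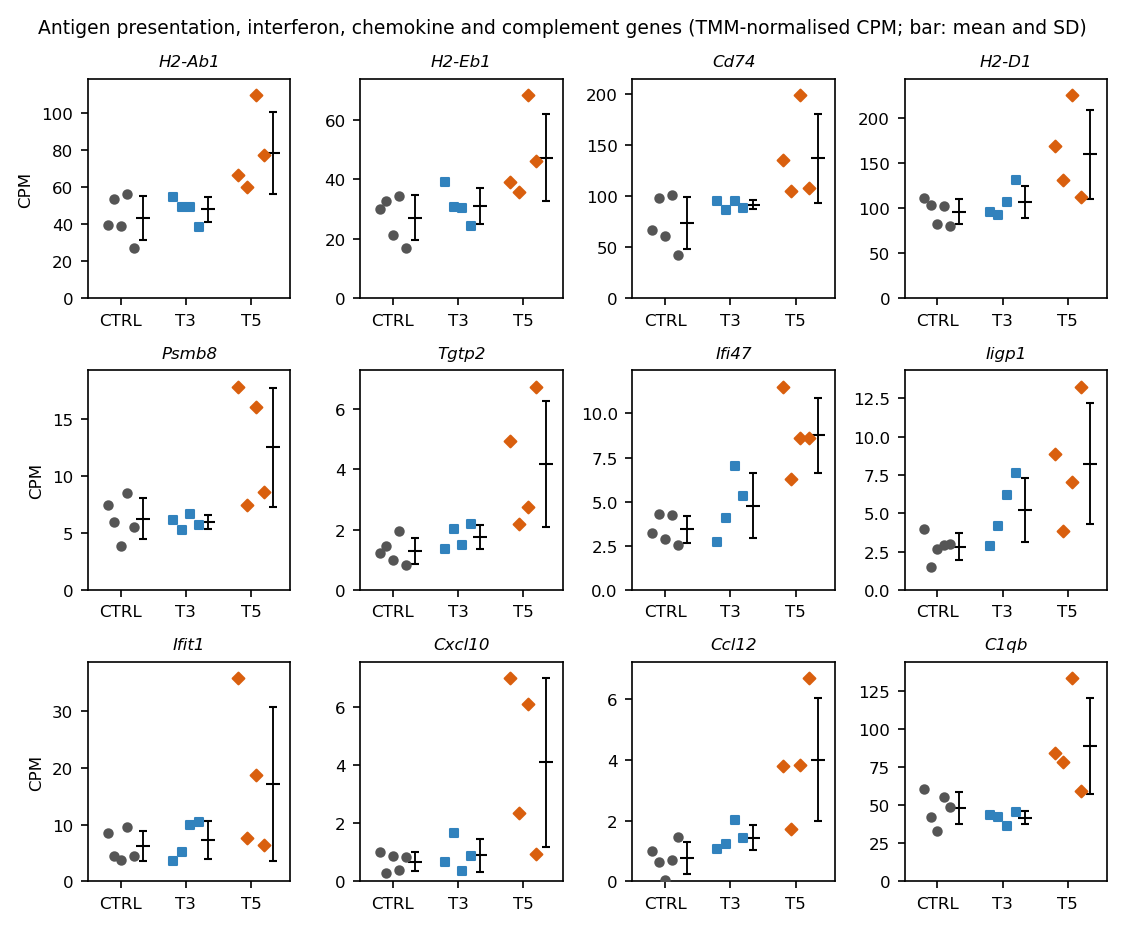
CPM (vertical axis, linear from 0) of 12 antigen presentation, interferon, chemokine and complement genes in the CTRL, T3 and T5 libraries; points are libraries and bars the mean with SD. For H2-Ab1, H2-Eb1, Cd74, H2-D1, Tgtp2, Ifi47 and Ccl12 all T5 points lie above all CTRL points.

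Markers of microglia and of border macrophages also stood mostly higher in T5. Microglia markers were positive in all 10 members (median 0.60, 2 at an unadjusted p below 0.05) and border macrophage markers in 10 of 12 (median 0.59, 1 such member). Tmem119, a microglial membrane protein, stood at 11.6, 4.88, 6.85, 12.8 and 12.8 CPM in CTRL and 25.2, 19.8, 28 and 9.25 CPM in T5 (1.07 ± 0.35). T5 replicates 1, 2 and 3 lay above the CTRL range and replicate 4 inside it. Cbr2, a reductase of resident macrophages, stood at 3.78, 2.82, 1.98, 5.48 and 3.08 CPM in CTRL and 12.8, 7.87, 10.4 and 4.83 CPM in T5 (1.39 ± 0.51), with the same division. Mrc1, the mannose receptor of border macrophages, stood at 5 to 10.4 CPM in CTRL and 8.84 to 16.1 CPM in T5 (0.64 ± 0.36, edgeR adjusted p = 0.701). Fcgr2b and Lgals9 belong to neither of these marker lists. Fcgr2b, the inhibitory receptor for IgG, did not overlap, at 3.73, 3.11, 2.69, 2.9 and 2.97 CPM in CTRL and 7.14, 5.75, 9.08 and 5.47 CPM in T5 (1.15 ± 0.31). Lgals9, which encodes the secreted lectin galectin-9, stood at 13, 11.6, 5.17, 8.63 and 5.94 CPM in CTRL and 24.6, 16.8, 24.8 and 11.8 CPM in T5 (1.14 ± 0.28), with T5 replicate 4 inside the CTRL range. In whole tissue, more cells of a type and more RNA per cell cannot be told apart. Without T5 replicate 3 the microglia median was 0.23, and with the brain marker term it was 0.16, against 0.30 for border macrophages.

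Complement genes, whose products tag surfaces for phagocytes, were positive in 11 of 14 tested members of 18, with a median of 0.52 and 3 at an unadjusted p below 0.05, all of them C1q chains. C1qb stood at 60.8, 42.4, 33.5, 55.2 and 49 CPM in CTRL and 84.4, 78.6, 134 and 59.5 CPM in T5 (0.89 ± 0.26), with T5 replicate 4 within the CTRL range and the other T5 libraries above it. C1qc did not overlap (21.6 to 34.8 CPM in CTRL and 36.8 to 78.4 CPM in T5; 0.79 ± 0.26) and C1qa overlapped by T5 replicate 4 (0.80 ± 0.28). Serping1, the inhibitor of the C1 complex, had 0.62 ± 0.29 (edgeR adjusted p = 0.642). Without T5 replicate 3 the list median was 0.31, and with the macrophage marker term 0.14.

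Lymphocyte markers were at low levels. Of 15 markers, 7 were tested and 6 were positive (median 0.84). Ighm, the immunoglobulin mu heavy chain of B cells, stood at 6.44, 4.48, 1.64, 6.8 and 4.15 CPM in CTRL and 6.61, 12.4, 11.6 and 4.88 CPM in T5 (0.91 ± 0.39), with T5 replicates 1 and 4 inside the CTRL range. The lymphocyte median was 0.55 without T5 replicate 3 and 0.46 with the brain marker term. Of 12 neutrophil markers 5 were tested, 2 of them positive and 3 negative, with a median of -0.15. Of 12 markers of monocytes and dendritic cells 8 were tested, 7 positive with 0 at an unadjusted p below 0.05. Erythrocyte markers were positive in all 8 tested (median 0.77), 3 at an unadjusted p below 0.05. Hbb-bs, an adult beta globin, stood at 418, 523, 247, 769 and 564 CPM in CTRL and 1225, 745, 952 and 572 CPM in T5 (0.79 ± 0.34), with T5 replicates 2 and 4 inside the CTRL range, and globin copies share reads. Without CTRL replicate 3, 0 erythrocyte members stood at an unadjusted p below 0.05. Hbb-bs was 1.49 ± 0.37 against T3 (edgeR adjusted p = 0.267).

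**Figure D3:**
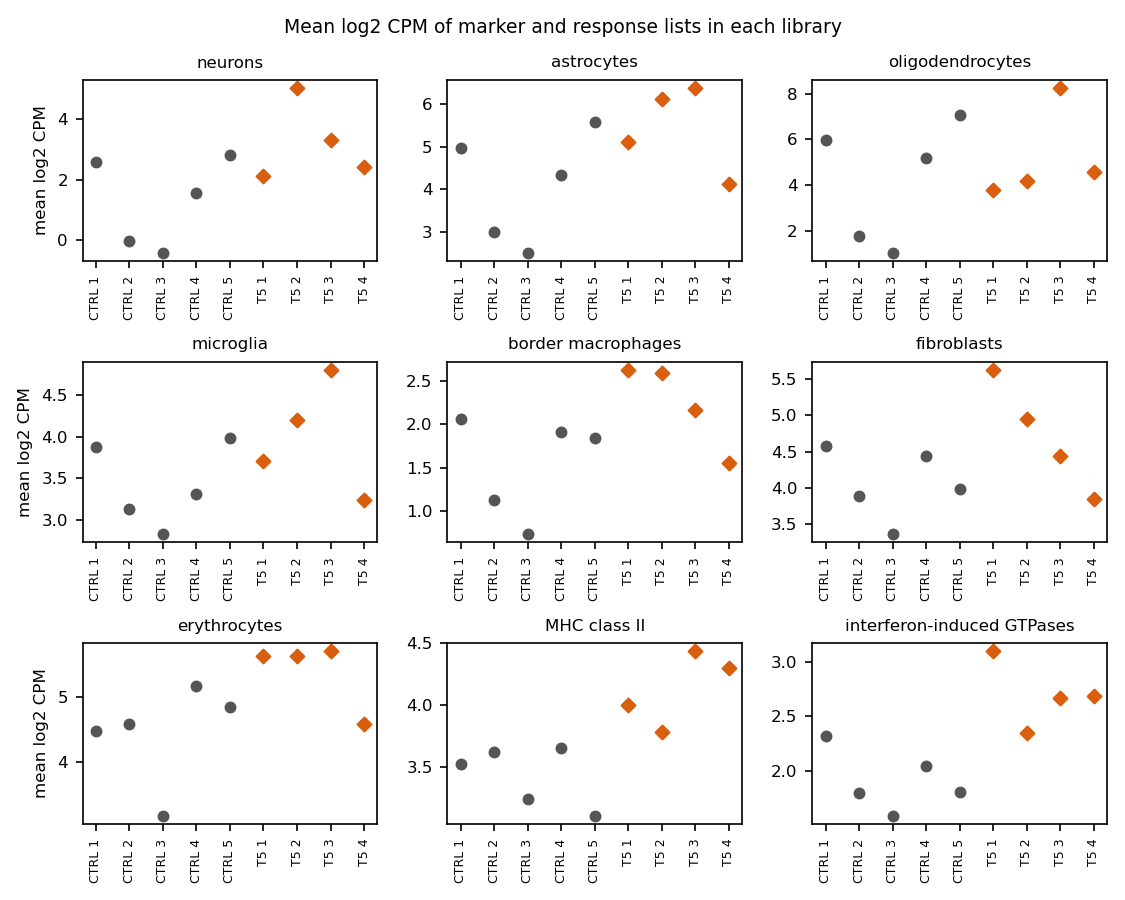
Mean log2 CPM (vertical axis) of 9 marker and response lists in each CTRL and T5 library (horizontal axis). T5 replicate 2 is highest for neurons and T5 replicate 3 for oligodendrocytes, while class II is higher in every T5 library than in any CTRL library.

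Brain cell markers varied widely between libraries of the same group. Neuron markers were positive in all 15 members, with a median of 2.15 and 7 at an unadjusted p below 0.05. Slc17a7, the vesicular glutamate transporter of cortical neurons, stood at 1.52, 0.202, 0.547, 3.72 and 2.02 CPM in CTRL and 1.97, 92.4, 7.66 and 2.5 CPM in T5. T5 replicate 2 held most of the T5 signal, and without it the median of the neuron list was 0.87 with 1 member at an unadjusted p below 0.05. Nefm, a neurofilament subunit called by DESeq2, stood at 2.65, 1.13, 1.22, 1.07 and 2.13 CPM in CTRL and 4.58, 25, 5.89 and 4.01 CPM in T5, without overlap (2.58 ± 0.68; with the brain marker term 1.66). Bhlhe22, a transcription factor of forebrain neurons that was chosen after its values were seen because DESeq2 called it, stood at 0.565, 0.202, 0.252, 0.504 and 0.561 CPM in CTRL and 1.39, 19.1, 1.21 and 0.814 CPM in T5. It was high in T5 replicate 2 alone, though the other T5 libraries also lay above the CTRL range. Oligodendrocyte markers were positive in all 13 members (median 0.90, 0 at an unadjusted p below 0.05). Cnp, an enzyme of myelin, stood at 211, 45.8, 33.3, 154 and 492 CPM in CTRL and 71.3, 85.3, 1032 and 91.9 CPM in T5. Without T5 replicate 3 the oligodendrocyte median was -1.59, the opposite sign. Astrocyte markers were positive in 11 of 12 (median 1.18), with Agt, which encodes angiotensinogen, at 1.3 ± 0.60 and Ntsr2, a neurotensin receptor, at 2.31 ± 1.04. The astrocyte median was 0.25 with the brain marker term and 0.01 with the macrophage marker term, where 0 members stood at an unadjusted p below 0.05, and Agt had 0.75 and 0.37 with these terms. The brain marker term is the mean of the neuron, astrocyte and oligodendrocyte lists. It therefore holds these genes themselves, Nefm and Agt among them. A smaller log2 fold change of theirs with that term was partly fixed beforehand. The part of brain cell content in the other results was not tested beyond the brain marker term.

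Among vessel and stromal genes, several were highest in T5 replicate 1. Plvap, a protein of the diaphragms that span endothelial fenestrae, stood at 45.6, 43, 34.9, 34.4 and 17.1 CPM in CTRL and 28.7, 31.7, 58.4 and 28.3 CPM in T5. T5 replicate 3 was high, the other T5 libraries lay inside the CTRL range, and the log2 fold change was 0.07 ± 0.34 (edgeR adjusted p = 0.98); it was -0.25 without T5 replicate 3, -0.11 without CTRL replicate 5 and -0.07 with the macrophage marker term. Cldn5, the claudin of endothelial tight junctions, stood at 16, 4.03, 3.53, 7.56 and 9.98 CPM in CTRL and 45.6, 11.3, 9.29 and 7.21 CPM in T5 (1.17 ± 0.67, edgeR adjusted p = 0.711), high in T5 replicate 1 alone; its log2 fold change was 0.18 without that library and 0.38 with the macrophage marker term. Cdh5, the cadherin of endothelial junctions, had 0.84 ± 0.55, which was 0.30 without T5 replicate 1, 1.37 without CTRL replicate 1 and 0.07 with the macrophage marker term. Pecam1, an endothelial adhesion molecule, had 0.33 ± 0.42; with the macrophage marker term Pecam1 had -0.31, the opposite sign. The endothelium list had 18 of 20 members positive with a median of 0.38 and 0 at an unadjusted p below 0.05, and its median was 0.05 with the brain marker term and -0.09 with the macrophage marker term. Leukocyte adhesion molecules had 7 of 8 tested members positive (median 0.23, 0 at an unadjusted p below 0.05); the median was 0.12 with the brain marker term and -0.002 with the macrophage marker term. Fibroblast markers were positive in 13 of 15 (median 0.70), 5 at an unadjusted p below 0.05, and 0 without T5 replicate 1. Vtn, which encodes vitronectin, stood at 75.2, 83.9, 113, 132 and 131 CPM in CTRL and 439, 185, 128 and 105 CPM in T5 (1.0 ± 0.47), with T5 replicate 1 far above all others. Dcn, a collagen-binding proteoglycan, had 0.62 ± 0.26 and Mgp, an inhibitor of calcification, 0.81 ± 0.30.

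Genes of the epithelium stood close to the CTRL level. The choroid plexus epithelium list had 5 of 20 members positive, a median of -0.08 and 1 member at an unadjusted p below 0.05, and its median was 0.05 with the brain marker term and 0.08 with the macrophage marker term, the opposite sign. That member was Htr2c, a serotonin receptor characteristic of this epithelium, at 343, 297, 316, 276 and 225 CPM in CTRL and 205, 169.9, 181 and 279 CPM in T5 (-0.48 ± 0.16). T5 replicate 4 lay inside the CTRL range and the other T5 libraries below it. Clic6, an epithelial chloride channel family gene, had -0.16 ± 0.14. Trpm3, a cation channel gene of this epithelium that was named after its values were seen because DESeq2 called it, stood at 1656, 1617, 1536, 1304 and 1314 CPM in CTRL and 1011, 999, 850.1 and 1239 CPM in T5, every T5 library below every CTRL library (-0.54 ± 0.14).

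Tight junction genes, which seal the epithelial layer between blood and cerebrospinal fluid, had 7 of 16 tested members positive of 18 (median -0.03, and 0.07 with the brain marker term and 0.10 with the macrophage marker term). Cldn2, a pore-forming claudin, stood at 338 to 648 CPM in CTRL and 459 to 612 CPM in T5 (0.02 ± 0.18). Cldn1 had -0.02 ± 0.17, Cldn3 -0.12 ± 0.19, Ocln, the occludin gene, -0.03 ± 0.16 and Tjp1, a scaffold that anchors claudins to actin, 0.14 ± 0.31; the sign of each of these 5 turned in at least 1 alternative fit. Tjp3, another scaffold, stood at 98.8, 118, 131, 107 and 104 CPM in CTRL and 104, 75.3, 83.9 and 101 CPM in T5 (-0.30 ± 0.12). Cldn10 stood at 4.23, 3.83, 2.52, 4.79 and 6.51 CPM in CTRL and 5.33, 16.8, 21.6 and 4.19 CPM in T5 (1.45 ± 0.48). It was high in T5 replicates 2 and 3, with brain marker means of 5.09 and 5.83. CTRL replicate 5 had a similar brain marker mean, 5.03, and 6.51 CPM of Cldn10. The part of brain tissue in Cldn10 was not tested beyond the brain marker term, with which its log2 fold change was 0.63. Genes of cerebrospinal fluid secretion had 10 of 24 members positive (median -0.03, and 0.03 with the brain marker term and 0.08 with the macrophage marker term). Stk39, the kinase that activates sodium-potassium-chloride cotransport, had -0.19 ± 0.13. Wnt beta-catenin targets had 14 of 20 members positive (median 0.13, 0 at an unadjusted p below 0.05), with Axin2, a feedback inhibitor of the pathway, at 0.08 ± 0.25 and Ctnnb1, beta-catenin itself, at 0.11 ± 0.13. With the macrophage marker term the median of the Wnt list was -0.03, the opposite sign.

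Clock genes, which time daily rhythms through a loop of activators and repressors, had 0 members past the test in T5 against CTRL, and Arntl and Dbp lay apart from their T3 level without passing the test. The list had 6 of 22 members positive against CTRL, a median of -0.12 and 0 at an unadjusted p below 0.05. The hour at which tissue was taken is not given in the labels. Arntl, the activator also known as Bmal1, stood at 9.99, 14.9, 17.3, 17.2 and 14.6 CPM in CTRL and 15.9, 18, 15.8 and 19.3 CPM in T5 (0.22 ± 0.20, edgeR adjusted p = 0.85). Its T3 mean was 31.6 ± 5.51 CPM (SD, n = 4), and T5 minus T3 was -0.88 ± 0.21 (edgeR adjusted p = 0.267). Dbp, an output factor whose daily peak is opposite to that of Arntl, stood at 45.9, 27.6, 27.8, 32 and 33 CPM in CTRL and 33.5, 28.3, 26.7 and 25.4 CPM in T5 (-0.22 ± 0.23); its T3 mean was 15.6 ± 3.83 CPM and T5 minus T3 was 0.86 ± 0.24 (edgeR adjusted p = 0.296). Npas2, an activator partner of Arntl, had 0.04 ± 0.23 against CTRL and -0.65 ± 0.24 against T3 (edgeR adjusted p = 0.411). The repressors Per2 and Per3 stood at -0.51 ± 0.33 and -0.53 ± 0.34, Nr1d1, which represses Arntl, at -0.15 ± 0.23, Ciart at -0.56 ± 0.50, and Per1 and Cry1 at -0.12 ± 0.30 and -0.05 ± 0.19 against CTRL. With the brain marker term 2 members stood at an unadjusted p below 0.05, Nr1d1 at -0.39 and Per3 at -0.79 (edgeR adjusted p = 0.59 for both); with the macrophage marker term Per3 had -0.81, and without CTRL replicate 1 it had -0.27. The sign of Npas2, Per1 and Cry1 turned in at least 1 alternative.

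**Figure D4:**
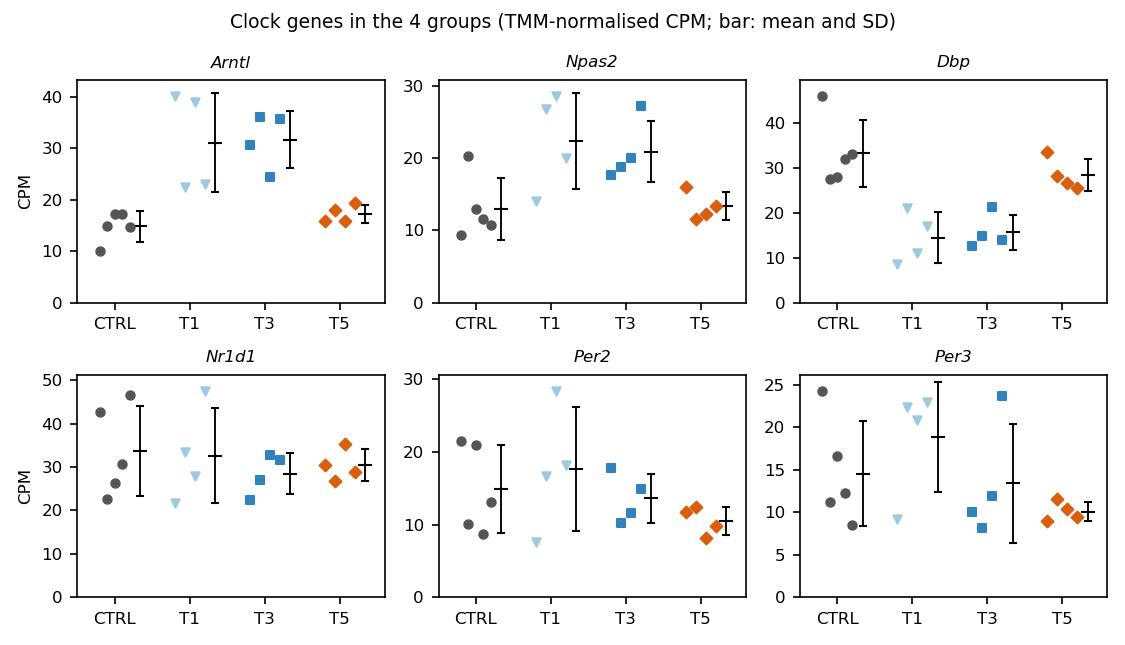
CPM (vertical axis, linear from 0) of 6 clock genes in the CTRL, T1, T3 and T5 libraries; points are libraries and bars the mean with SD. The T5 points of Arntl and Dbp lie among the CTRL points or next to them and apart from the T3 mean.

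Immediate early genes, switched on within minutes of a stimulus or of tissue handling, were positive in 20 of 23 tested members of 25 (median 0.61), 3 at an unadjusted p below 0.05. Nr4a2, a nuclear receptor, stood at 1.58, 1.77, 1.72, 1.7 and 1.63 CPM in CTRL and 5.22, 3.54, 2.41 and 2.27 CPM in T5, without overlap (1.0 ± 0.35). Atf3, a stress transcription factor, stood at 1.02, 1.09, 0.631, 0.063 and 0.505 CPM in CTRL and 4.05, 1.81, 2.2 and 0.93 CPM in T5 (1.75 ± 0.72) and Klf6 at 0.71 ± 0.30. The median of the list was 0.23 with the brain marker term and 0.07 with the macrophage marker term. Glucocorticoid response genes were positive in 15 of 18 (median 0.37), 2 at an unadjusted p below 0.05. Angptl4, an inhibitor of lipoprotein lipase, stood at 12.6, 7.02, 6.18, 17.8 and 9.31 CPM in CTRL and 18, 24.2, 28.4 and 12.4 CPM in T5 (0.97 ± 0.37), and Mt1, a metal-binding protein, at 232, 142, 139.7, 225 and 266 CPM in CTRL and 261, 295, 429.5 and 220.4 CPM in T5 (0.59 ± 0.21). CTRL and T5 overlapped for both. Mt1 was 1.13 ± 0.23 against T3 (edgeR adjusted p = 0.267). The hormone-induced genes Fkbp5 and Tsc22d3 had 0.70 ± 0.38 and 0.43 ± 0.22. Fkbp5 had 0.36 without T5 replicate 2, and with the brain and macrophage marker terms 0.32 and 0.27; Tsc22d3 had 0.12 and 0.10 with these terms. With the brain marker term the median of the glucocorticoid list was 0.18, with 0 members at an unadjusted p below 0.05.

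The lower values with the smallest p-values included genes of motile cilia. Lower protein-coding genes at an unadjusted p below 0.05 were longer in general (median 38.3 kb, against 25.4 kb for all tested ones). The part of gene length in the cilium values was not tested. The axoneme list had 8 of 24 members positive of 26, a median of -0.12 and 7 members lower at an unadjusted p below 0.05, with 6 of them not overlapping. Dnah7b (chr1:46066315-46373546), an inner arm dynein heavy chain that slides ciliary microtubules, stood at 28.1, 21.9, 28, 21.2 and 18.9 CPM in CTRL and 12.8, 9.92, 12.2 and 17.8 CPM in T5. Every T5 library lay below every CTRL library (-0.84 ± 0.17, edgeR adjusted p = 0.521; DESeq2 adjusted p = 0.0173), and T5 minus T3 was -0.67 ± 0.17 (edgeR adjusted p = 0.267). Cfap44, a protein that anchors inner arm dyneins, stood at 71.3, 58.7, 67.7, 60.6 and 59.3 CPM in CTRL and 46.9, 33, 31.4 and 50.3 CPM in T5 (-0.65 ± 0.15), and its partner Cfap43 at 36.8, 28.8, 37.1, 30.4 and 30.9 CPM in CTRL and 26.1, 19.3, 22.1 and 27.2 CPM in T5 (-0.47 ± 0.12). Dnah6, another inner arm chain, stood at 42.3, 28.1, 28.5, 21.5 and 28.8 CPM in CTRL and 19.2, 16.3, 18.9 and 21.1 CPM in T5 (-0.66 ± 0.20), and Dnah9, an outer arm chain, at 19.5, 16, 25.7, 19.7 and 21.6 CPM in CTRL and 13.3, 12.8, 15.2 and 15.9 CPM in T5 (-0.52 ± 0.17). None of these 5 overlapped between the groups. Dnah7b has close copies in the genome, so its count may hold reads of them. Foxj1, the regulator of motile ciliogenesis, stood at 71.2 to 113 CPM in CTRL and 61.7 to 101 CPM in T5 (-0.14 ± 0.16, edgeR adjusted p = 0.897), and the ependymal list had 7 of 12 members positive with a median of 0.05, which was -0.05 with the brain marker term and -0.04 with the macrophage marker term. With the brain marker term 8 axoneme members stood at an unadjusted p below 0.05 and the median was -0.18; over the fits that left out 1 library 6 to 8 members did.

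Stk36, a kinase needed for the central pair of motile cilia, stood at 15.7, 23.3, 22.5, 18.8 and 24.9 CPM in CTRL and 17.3, 11.1, 10.4 and 12.4 CPM in T5 (-0.71 ± 0.18), with T5 replicate 1 inside the CTRL range. Dzip1l, of the ciliary base, stood at 18.5, 21.3, 16.8, 12 and 17.4 CPM in CTRL and 10.2, 10.5, 9.65 and 13.4 CPM in T5 (-0.65 ± 0.16), with T5 replicate 4 inside it. Spata17 had -0.65 ± 0.16 and Lrriq1 -0.69 ± 0.17. Intraflagellar transport, which carries cargo along cilia, had 6 of 21 members positive (median -0.07) and 4 lower at an unadjusted p below 0.05; the median turned to 0.02 with the brain marker term and 0.06 with the macrophage marker term. Dync2h1, the motor of return transport, stood at 76.7, 59.3, 58.8, 53.1 and 52.9 CPM in CTRL and 38.2, 52.2, 51.2 and 45.2 CPM in T5, without overlap (-0.37 ± 0.13), and Ift88 at 27.2, 24.2, 25.3, 23.8 and 20.02 CPM in CTRL and 18.6, 17.6, 18.1 and 20.1 CPM in T5 (-0.37 ± 0.13). Dnmbp (chr19:43846821-43940191), a scaffold that links dynamin and actin regulators, did not overlap at 28.3, 27.4, 30.7, 26.5 and 24.7 CPM in CTRL and 19.6, 15, 17 and 21.4 CPM in T5 (-0.59 ± 0.12; DESeq2 adjusted p = 0.0187). Against T3 Dnmbp was -0.62 ± 0.13 (edgeR adjusted p = 0.267).

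Splicing regulators and cold-inducible RNA-binding proteins were mostly lower, with 4 of 23 members positive, a median of -0.16, 8 lower at an unadjusted p below 0.05 and 4 not overlapping. Srsf5, a serine-arginine splicing factor, stood at 266, 266, 260.5, 185 and 180.1 CPM in CTRL and 164, 99.9, 133 and 166 CPM in T5 (-0.72 ± 0.24), and T5 minus T3 was -0.98 ± 0.25 (edgeR adjusted p = 0.267). Clk1, a kinase that phosphorylates such factors, stood at 59.6, 77.2, 59.8, 52.8 and 50.6 CPM in CTRL and 41.5, 35, 35.7 and 41.6 CPM in T5 (-0.64 ± 0.24), and Clk4 had -0.58 ± 0.22. All 4 T5 libraries lay below all 5 CTRL libraries for these 3 genes. Pnisr stood at 108, 63.8, 83, 58 and 67.5 CPM in CTRL and 41, 33.1, 39.6 and 59.4 CPM in T5 (-0.81 ± 0.26), overlapping by T5 replicate 4. The 8 members at an unadjusted p below 0.05 were 4 without T5 replicate 3 and 8 with either marker term. Among long non-coding RNAs 7 of 14 were positive (median -0.02, and -0.44 with the brain marker term) and 4 were lower at an unadjusted p below 0.05. Neat1, the scaffold of nuclear paraspeckles, stood at 101, 65.8, 56.3, 44.8 and 49.9 CPM in CTRL and 26.6, 15.7, 33.2 and 35.2 CPM in T5 (-1.2 ± 0.49) and Lncpint, induced by p53, at 7.85, 3.87, 6.73, 4.66 and 4.15 CPM in CTRL and 2.19, 1.73, 1.49 and 3.14 CPM in T5 (-1.34 ± 0.46); neither overlapped. Kcnq1ot1, an antisense RNA of an imprinted domain, had -0.98 ± 0.38, and the strand setting of the counting is not given in the sources used here, so reads of overlapping genes cannot be told apart. Without T5 replicate 1, 1 of these RNAs stood at an unadjusted p below 0.05.

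**Figure D5:**
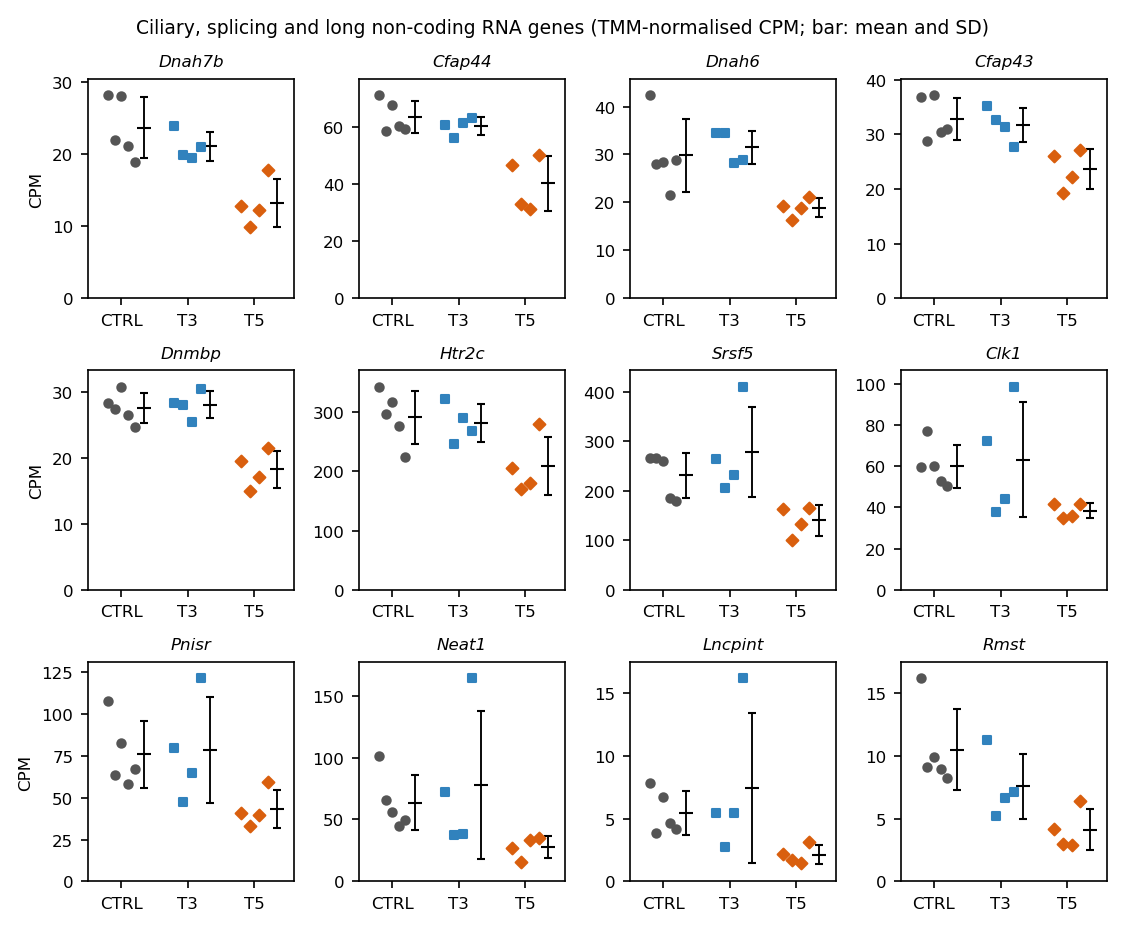
CPM (vertical axis, linear from 0) of 12 ciliary, epithelial, splicing and long non-coding genes in the CTRL, T3 and T5 libraries; points are libraries and bars the mean with SD. For Dnah7b, Cfap44, Cfap43 and Dnmbp all T5 points lie below all CTRL points.

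Single genes outside the lists completed the named set. Ddi1, a retroviral-like aspartic protease, stood at 1.47, 0.645, 1.77, 0.882 and 0.953 CPM in CTRL and 0, 0.0787, 0.142 and 0 CPM in T5, all T5 libraries below all CTRL libraries (-4.34 ± 0.81, a fitted value that depends on the prior count). Rmst, a long non-coding RNA of the developing brain, stood at 16.2, 9.16, 9.92, 9 and 8.24 CPM in CTRL and 4.16, 2.99, 2.91 and 6.4 CPM in T5 (-1.35 ± 0.30). Dach2, a transcription cofactor, stood at 8.87, 4.32, 6.81, 3.9 and 6.28 CPM in CTRL and 2.45, 2.44, 2.84 and 3.08 CPM in T5 (-1.16 ± 0.29), also without overlap, and Otx1, a homeobox factor of the forebrain, at 22.4, 20.1, 20.1, 19 and 13.9 CPM in CTRL and 15, 10.5, 10.6 and 12 CPM in T5 (-0.66 ± 0.15), overlapping by T5 replicate 1. The transcribed pseudogene BC021767 had -2.02 ± 0.50. Among the higher genes, Sult4a1, a brain sulfotransferase, stood at 46.5, 40.6, 43.3, 35.8 and 44.9 CPM in CTRL and 53, 77.6, 59 and 48.5 CPM in T5 (0.49 ± 0.12) and Klhl8, a kelch-like protein, at 10.8, 7.62, 7.74, 7.24 and 9.08 CPM in CTRL and 13.1, 21.7, 11.1 and 11.6 CPM in T5 (0.76 ± 0.20); neither overlapped, and both were highest in T5 replicate 2. Tdo2, which starts tryptophan breakdown, stood at 0.339, 0.766, 0.252, 0.189 and 0.168 CPM in CTRL and 0.426, 6.93, 1.06 and 1.05 CPM in T5 (2.72 ± 0.71), highest in T5 replicate 2; without it the log2 fold change was 1.24.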

How the data were processed

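RNA sequencing libraries were made from whole choroid plexus with the SMART-Seq v4 kit, which amplifies cDNA by PCR, per the labels. The authors deposited 1 table of raw counts, with Ensembl genes as rows and the 17 libraries as columns. Trimmomatic 0.39, STAR 2.6.1b and featureCounts 1.6.4 appear in the submitters' processing notes, as does the build GRCm38, with no order or settings. PCR copies were counted as reads. Neither the annotation release nor the strand setting nor the rule for multi-mapped reads is given in the sources used here. Symbols and coordinates came from GENCODE on GRCm38 for 55394 of 55487 identifiers.

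Of 39303 genes with a read, 16851 passed filterByExpr and entered edgeR 4.0.16 (R 4.3.3), with TMM normalization (1 mean per group over 17 libraries, robust quasi-likelihood F test, Benjamini-Hochberg, threshold 0.05). Chi-square values per gene between replicates of T5 or CTRL were 14.2 to 63.2, so none was counted as a copy. Standard errors were taken as the absolute log2 fold change over the square root of F and are approximate. DESeq2 1.42.0 and limma 3.58.1 served as alternatives, with other normalization, filters, library sets, marker terms and leaving out each library. List means use log2 CPM with a prior count of 2. Library measures were tested by exact permutation after thinning to 12477553 counts where genes were counted. The edgeR fit was also run on simulated counts. These held no differences in brain marker content between libraries, so that run cannot show how the test behaves with them.

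Named genes were the 12 of each direction with the smallest p, a mean of at least 1 CPM in the higher group, an official symbol and all T5 libraries on 1 side of the CTRL mean; up to 4 members per described list; and a set always named. The values of 1 gene of a described list are not reported here. The members and lists were chosen with earlier results of these data known, so no list was given a p.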

Additional observations from a re-analysis of the deposited data

Results flagged for a closer look

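Among 296 groups of values checked in the CTRL and T5 libraries (genes named in the text, list means and library measures, on a log2 scale for genes), 12 held a library whose gap to its nearest neighbour was large against the range of its group. Chance marks about 1 group in 20, and the 12 are fewer than that.

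In CTRL, replicate 3 was low for Lrg1, the acute phase glycoprotein (0.547 CPM against 1.96 to 2.54 in the others), and for F13a1, a coagulation factor subunit of macrophages (2.27 CPM against 4.91 to 6.39). CTRL replicate 5 was low for Plvap (17.1 CPM against 34.4 to 45.6). CTRL replicate 1 was high for Rmst (16.2 CPM against 8.24 to 9.92) and for the share of long non-coding or not yet checked transcripts (0.947% against 0.711 to 0.773%).

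In T5, replicate 3 was high for Plvap (58.4 CPM against 28.3 to 31.7) and for Cnp (1032 CPM against 71.3 to 91.9). T5 replicate 4 was low for Pecam1 (12.4 CPM against 19.7 to 21.4) and for the erythrocyte list (mean log2 CPM 4.58 against 5.62 to 5.70), and high for the intraflagellar transport list (5.84 against 5.71 to 5.73). T5 replicate 1 was low for Ift80, a transport subunit (40.3 CPM against 50.8 to 52.1), and T5 replicate 2 was high for Bhlhe22 (19.1 CPM against 0.814 to 1.39).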

How the results depend on the processing

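edgeR called 0 genes between T5 and CTRL in every edgeR and limma-voom alternative run and DESeq2 called 16; 0 between T5 and T3 became 84 with DESeq2, and 0 to 1 over the fits that left out 1 library (1 without T5 replicate 4). Genes at an unadjusted p below 0.05 numbered 2252 without a filter and 2006 without the 4 libraries of highest title number (T1 replicates 2, 3 and 4 and T3 replicate 4), and 867 (without CTRL replicate 3) to 1726 when 1 library was left out, for T5 against CTRL; for T5 against T3 they numbered 2647, 2688 and, with the brain marker term, 2773. Log2 fold changes that turned sign were, by alternative, with the brain marker term Cldn1 0.065, Cldn3 0.091, Cnp -0.72, Cry1 0.034, Ocln 0.070, Pecam1 -0.059 and Tjp1 -0.23; with the macrophage marker term Cldn1 0.14, Cldn3 0.14, Cnp -0.59, Ocln 0.11, Pecam1 -0.31, Plvap -0.067 and Tjp1 -0.30; with limma-voom Cldn2 -0.026 and Ttr -0.057; without a filter Ttr -0.011; with a filter of 1 CPM in 4 libraries Ttr -9e-04; with only the 2 groups in the fit Ttr -0.0054; without the 4 libraries of highest title number Ttr -0.0032. When 1 library was left out, the range was Axin2 -0.071 to 0.27, Cldn1 -0.14 to 0.055, Cldn2 -0.11 to 0.099, Cnp -1.18 to 1.53, Cry1 -0.12 to 0.045, Npas2 -0.059 to 0.26, Ocln -0.15 to 0.054, Per1 -0.25 to 0.033, Plvap -0.25 to 0.19, Tjp1 -0.0088 to 0.26 and Ttr -0.15 to 0.090. The causes were not tested. No paired analysis was possible because the labels give no replicate numbers that tie libraries across groups. Low counts limit the chemokines and lymphocyte markers, and differences there were not detectable below a few reads.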

Other observations

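Genes for cytoplasmic ribosomal proteins, which build the translation machinery, stood slightly higher in T5. All 38 members had positive log2 fold changes with a median of 0.22 (54.5% of all genes were positive) and 0 at an unadjusted p below 0.05. Rpsa, of the small subunit, stood at 87.9, 77.5, 77.5, 105 and 77.1 CPM in CTRL and 101, 99.3, 115 and 102 CPM in T5 (0.30 ± 0.16), and Rpl30, of the large subunit, at 34, 28.1, 30.9, 34.9 and 29.4 CPM in CTRL and 33.7, 39.4, 39.7 and 44.8 CPM in T5 (0.32 ± 0.17), with overlapping groups for both. The median was 0.37 with the brain marker term and 0.41 with the macrophage marker term, where 16 and 20 members stood at an unadjusted p below 0.05. Over all genes tested, 1405 and 1428 stood at that level with these terms. Thyroid hormone and retinoid genes had 13 of 18 tested members positive (median 0.22). Dio2, which activates thyroid hormone, stood at 1.07, 0.161, 0.21, 0.567 and 2.75 CPM in CTRL and 1.01, 10.5, 7.52 and 0.93 CPM in T5 (2.39 ± 0.90), high in T5 replicates 2 and 3, and Thra, a thyroid hormone receptor, at 34.4, 27.4, 31.1, 38.2 and 35 CPM in CTRL and 35.3, 58, 56.1 and 32.6 CPM in T5 (0.45 ± 0.19).

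The makeup of the lower and the higher genes is given as a description. Of the 664 lower genes at an unadjusted p below 0.05, 228 (34.3%) were not protein coding, against 23 of 656 higher genes (3.51%) and 14.2% of all genes tested. Lower protein-coding genes had a median length of 38.3 kb with 6.19 kb of exon, higher ones 19.8 kb with 3.60 kb, and all tested ones 25.4 kb with 4.49 kb. The share of counts on long non-coding or not yet checked transcripts, 0.784% in CTRL and 0.704% in T5, moved in the same direction. CTRL replicate 1 stood apart at 0.947%. The other CTRL libraries had 0.711 to 0.773%, which overlapped with 0.686 to 0.727% in T5. The share of counts on these transcripts covers fewer classes than the genes counted here as not protein coding. Its part in this makeup was not tested.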
